A study of Rattus norvegicus with 6 samples.

Results

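The genes of the major histocompatibility complex (MHC) and of peptide loading were followed in rat spinal cord. The members are all array features whose gene name begins with RT1-, the name of the rat MHC, together with B2m, Cd74, Tap1, Tap2, Tapbp and Ciita. This rule found 37 genes out of 35378 on the array, with 43 targets out of 36410 and 54 probes out of 41012. A target is a transcript to which the array maker assigned 1 or more probes. Of the 43 targets, 29 belonged to class I, 7 to class II and 7 to the 6 partner genes, and 40 exceeded the background clearly ("well above background" in the scanner's marks) on 1 or more arrays.

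The 6 arrays stood for 6 groups of adult Lewis rats, and each group was 1 array. ENMO, the model of experimental neuromyelitis optica, received MBP-specific T cells and, 4 days later, NMO-IgG, a human antibody preparation directed against the astrocyte water channel aquaporin 4. EAEcoI received the same T cells and human control IgG (Subcuvia), and EAEcoP had PBS as a mock antibody after its T cells. The groups NMO-IgG only and control IgG only had the antibody without T cells, and the healthy control was left untreated. RNA came from paraffin sections of the whole length of the spinal cord, pooled from 5 rats for each group and from 3 for the healthy control, taken 24 h after the antibody or PBS. The pools therefore hide the spread between animals, no comparison of 2 groups could be tested, and p-values over 3 arrays with against 3 without T cells measure the spread between arrays of differently treated groups. ENMO, EAEcoP and control IgG only shared 1 slide, and the other 3 arrays the other.

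MHC class I molecules present peptides made in the cytosol to CD8+ T cells. Their heavy chain pairs with beta-2-microglobulin (B2m), the transporter made of Tap1 and Tap2 carries the peptides into the endoplasmic reticulum, and tapasin (Tapbp) holds the empty class I molecule at that transporter. MHC class II molecules present peptides from endosomes to CD4+ T cells, such as the MBP-specific cells injected here. Their alpha and beta chains assemble on the invariant chain, Cd74, DM and DO then govern the exchange of peptides, and Ciita is the transcriptional coactivator that switches the class II genes on. In the rat, RT1-A encodes the classical class I chains, the RT1-CE, RT1-M, RT1-N, RT1-S and RT1-T genes are mostly non-classical or class I-like, and RT1-B and RT1-D encode the classical class II chains. Both classes are scarce in resting spinal cord and are inducible by interferons.

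Some RT1 class I probes read similar sequences, so the 60-base probes behind the results are shown first, each 5′ to 3′. The first set detects RT1-A2, RT1-CE2, RT1-CE3 and RT1-CE4. Capitals mark the bases that differ from the RT1-A2 probe where the probes overlap, which are 6 of 44, 4 of 40 and 10 of 58.
RT1-A2: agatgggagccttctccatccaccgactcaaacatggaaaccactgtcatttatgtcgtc
RT1-CE2: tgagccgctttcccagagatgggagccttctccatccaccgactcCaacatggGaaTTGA
RT1-CE3: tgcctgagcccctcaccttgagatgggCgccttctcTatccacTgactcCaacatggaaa
RT1-CE4 probe 1: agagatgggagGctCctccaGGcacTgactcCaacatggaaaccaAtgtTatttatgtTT

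The second set holds RT1-A3 and RT1-CE10, whose probes differed at 5 of 57 overlapping bases. Capitals mark the bases that differ from RT1-A3.
RT1-A3: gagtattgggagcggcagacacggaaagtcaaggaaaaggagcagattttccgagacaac
RT1-CE10: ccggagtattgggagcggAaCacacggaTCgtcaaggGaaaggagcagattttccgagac

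The third set holds RT1-CE1, RT1-CE12 and RT1-M6-2, with 5 of 57 and 11 of 59 overlapping bases differing from RT1-CE1, again in capitals.
RT1-CE1: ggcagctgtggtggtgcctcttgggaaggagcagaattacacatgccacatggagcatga
RT1-CE12: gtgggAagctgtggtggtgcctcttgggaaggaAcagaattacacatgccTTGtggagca
RT1-M6-2: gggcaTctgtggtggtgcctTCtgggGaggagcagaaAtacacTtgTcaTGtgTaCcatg

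The fourth set is shown because the probes of a single gene can be compared, or because the probe read a gene discussed in detail.
RT1-CE4 probe 2: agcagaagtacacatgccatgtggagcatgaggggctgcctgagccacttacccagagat
RT1-CE5 probe 1: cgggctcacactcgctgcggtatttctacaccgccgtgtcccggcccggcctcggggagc
RT1-CE5 probe 2: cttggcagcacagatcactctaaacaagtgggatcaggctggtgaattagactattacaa
RT1-Cl probe 1: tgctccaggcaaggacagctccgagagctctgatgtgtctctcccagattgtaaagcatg
RT1-Cl probe 2: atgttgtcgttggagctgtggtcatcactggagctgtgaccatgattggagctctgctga
RT1-T24-1: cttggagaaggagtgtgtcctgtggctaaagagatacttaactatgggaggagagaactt
RT1-Bb: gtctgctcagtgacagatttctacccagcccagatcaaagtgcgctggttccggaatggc
B2m: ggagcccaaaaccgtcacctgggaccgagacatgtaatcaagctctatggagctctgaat
Tap2: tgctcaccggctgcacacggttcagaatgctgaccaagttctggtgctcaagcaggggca

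In the coordinates of the scanner files, which name rat but no version of its genome, 28 of the 34 class I probes and 10 of the 11 class II probes lay on chromosome 20, 3 class I probes on an unplaced part of chromosome 20, and 3 class I and 1 class II probe had no position. RT1-CE1 was read at chr20:3595725-3595784 on the minus strand and RT1-A3 at chr20:5000418-5000477 on the plus strand. Tap1, Tap2 and Tapbp lay on chromosome 20 too, B2m on chromosome 3 and Ciita on chromosome 10. The probes within each of the first 3 sets are alike. Whether a probe bound the transcript of a neighbouring copy was not tested. A value assigned to 1 gene of these sets may therefore hold signal from its relatives.

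Values are normalized signal intensities (NSI), the processed spot signals after quantile normalization over the 6 arrays, which ran from 1.59 to 188852. A target takes the NSI of its brightest probe. Spots that repeated a probe at least 10 times on an array (263 probes) had a pooled standard deviation (SD) of 0.54 on the log2 scale, so a difference between 2 arrays carries an SD of 0.77, or 1.70-fold, from the spots alone. This technical spread is the sole error known for a single array. The share of spots well above background ranged from 35.4% (control IgG only) to 60.2% (EAEcoP), and was 44.4% in ENMO. Of the markers of spinal cord, 8 of 8 oligodendrocyte genes and 9 of 10 neuronal genes were measured, and of the astrocyte markers 6 of 8. Among the oligodendrocyte genes, the mean NSI with T cells was higher for Mbp (3.21-fold), Mag (4.36-fold) and Cnp (2.32-fold). Of all targets, 10.4% were at least 2-fold higher. These genes were highest in EAEcoP, and their arrays with and without T cells overlapped. Mbp gave 456 in ENMO and 582 in EAEcoI, below control IgG only (612), and 2042 in EAEcoP. Mog was at least 2-fold lower with T cells. The summed NSI of the 8 genes was 3930 in EAEcoP and 1765 to 2642 on the other arrays, and without Mbp 1889 in EAEcoP and 1183 to 2473 elsewhere. The part of this in the MHC values was not tested.

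The median level of class I transcripts was higher in the 3 groups that had received T cells, with 20 of 27 targets higher by their mean, 7 lower and 14 overlapping between the sides. The median NSI of the 27 class I targets measured was 90.6 in ENMO, 142 in EAEcoI and 181 in EAEcoP, against 40.3 in the healthy control, 61.5 in control IgG only and 45.6 in NMO-IgG only. All 3 arrays with T cells lay above all 3 without for 13 of the 27 class I targets, 1 of the 6 class II targets and 2 of the 7 partner targets, while 10.9% of the 24759 targets tested did so. Of the 13, RT1-A3, RT1-Aw2 (Y13890), RT1-CE1, RT1-CE7, RT1-CE10 and RT1-T24-1 were well above background on arrays with T cells alone. They were thus tested only because of the side on which they were higher. No member lay lower on all 3 arrays with T cells, against 7.04% of all targets. The median log2 ratio of the mean NSI with T cells over the mean without was 0.78 for class I (1.72-fold), 0.57 for class II (1.48-fold) and 1.47 for the partners (2.77-fold), beside a median of -0.0024 for all targets. Within the slide of ENMO, EAEcoP and control IgG only this median was 1.06 for class I and 1.16 for class II, and within the other slide 0.61 and 0.43. Over targets well above background on all 6 arrays, the median with over without T cells was 0.56 for class I (15 targets) and 0.54 for class II (3 targets).

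At least 2-fold higher NSI with T cells was seen for 10 of 27 class I targets, 2 of 6 class II targets and 5 of 7 partner targets, beside 10.4% of all targets. For these counts, a side with no array well above background had its values below the detection floor raised to that floor. The floor of an array is the lowest NSI among its probes well above background. Such bounds compare mean log2 NSI, not mean NSI. As measured, RT1-M2 and Ciita would be added, to 19 members, beside 4610 of all 24759 targets. Only the class II gene RT1-DOa was at least 2-fold lower among the 40 members measured, beside 2442 of all 24759 targets as measured. In the authors' deposited values per target, which are not levelled between arrays to the same extent, the median log2 ratio of all targets was 0.75. The 19 members at least 2-fold higher as measured became 33 there, beside 10053 of 24944 targets. The share of higher among all targets past 2-fold went from 65.4% to 92.9% with this shift. Relative to that shift, the class medians kept their size, with 0.78 for class I and 0.71 for class II above the median of all targets. With normexp background correction, 6 members were past 2-fold as measured and all 6 were higher, beside 904 higher and 586 lower of all 24759 targets.

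In limma, with the 3 arrays with T cells against the 3 without, none of the 24759 targets passed an adjusted p of 0.05 (0%), members included. The lowest adjusted p among the members was 0.18. An unadjusted p under 0.05 was reached by 14 of the 40 members, all higher with T cells (10 class I, 1 class II and 3 partner targets), while 8.24% of all targets reached it in that direction. The 10 class I targets include those named above that were tested through the arrays with T cells alone. The class II target, RT1-Da, was tested in the same way. No member was called without EAEcoI, EAEcoP or any array without T cells. Without ENMO, RT1-T24-1 alone among the members was called, at an adjusted p of 0.049 in limma, beside 177 of all 24759 targets (0.715%), 170 of them higher.

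**Figure D1:**
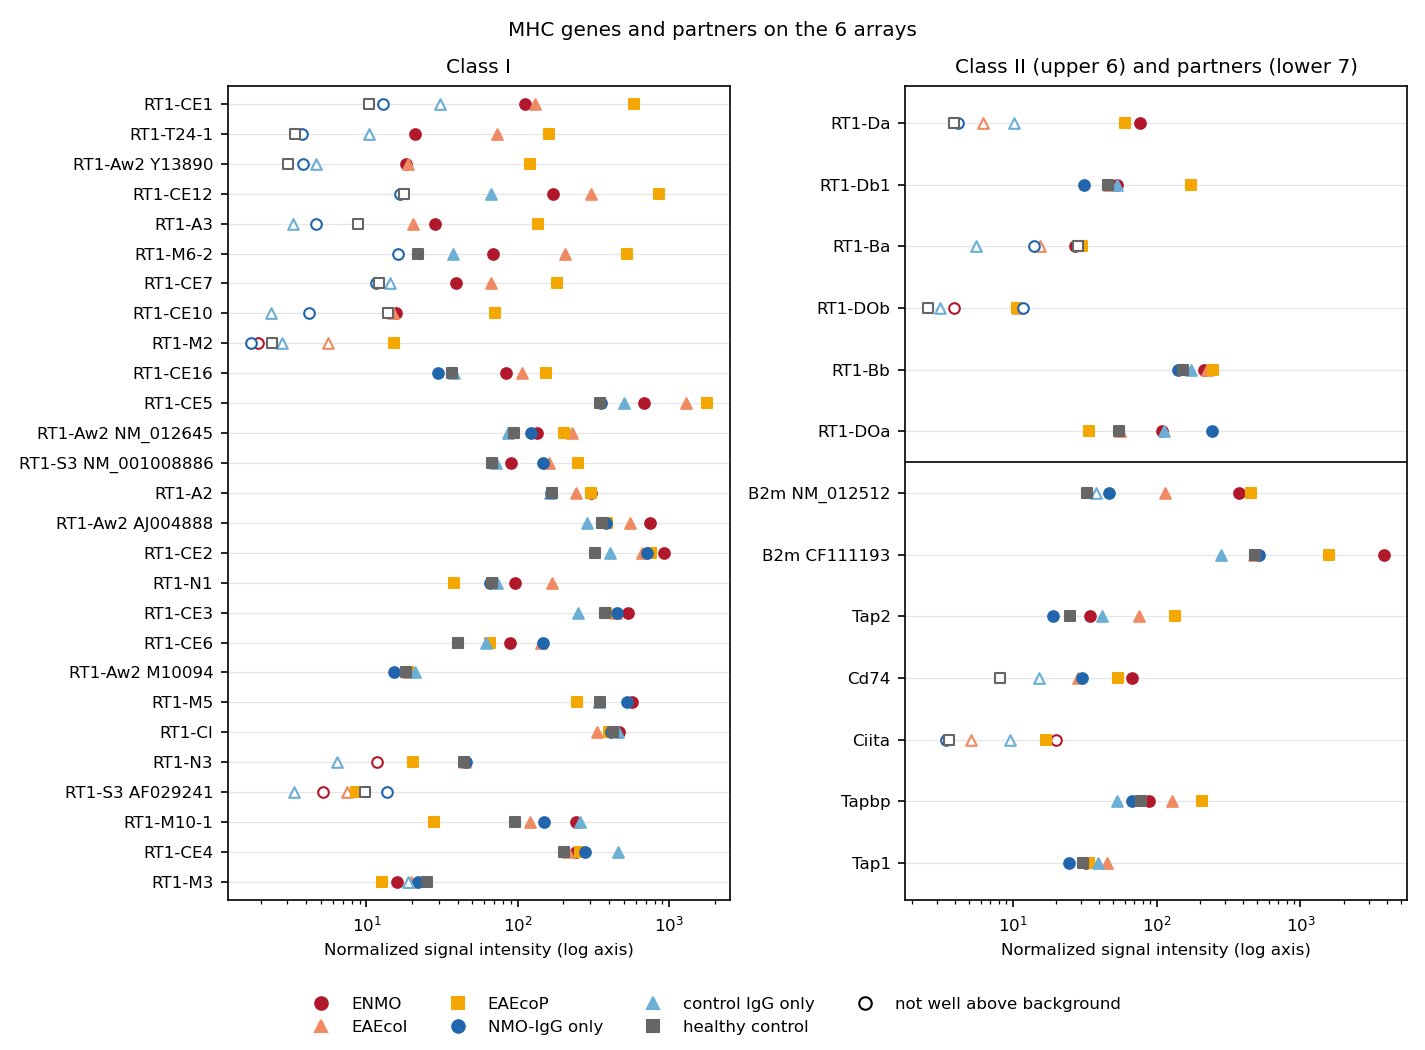
NSI (log axis) of the 27 class I, 6 class II and 7 partner targets detected on any array, ordered within each class by the ratio with over without T cells, with 1 point for each array and open points where the target was not well above background. In the upper rows of class I the 3 arrays with T cells lie apart from the others, with EAEcoP highest, as in RT1-CE1 at 588.

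The class I genes at the head of that order were higher on all arrays with T cells, although by unequal amounts. RT1-CE1 gave 112 (ENMO), 131 (EAEcoI) and 588 (EAEcoP), and was not well above background on the 3 arrays without T cells, at 10.4 in the healthy control, 30.7 in control IgG only and 12.8 in NMO-IgG only. The arrays with T cells did not overlap with the others, and the difference was at least 12.8-fold (log2 difference in limma 3.68, standard error (SE) 0.75, adjusted p = 0.18).

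RT1-CE12, whose probe is close to that of RT1-CE1, gave 171 (ENMO), 303 (EAEcoI) and 860.0 (EAEcoP). Without T cells it was well above background in control IgG only, at 66.7, and not in NMO-IgG only (16.7) or the healthy control (17.8). Its mean NSI was 13.2-fold higher with T cells. RT1-M6-2, the third of this set, gave 68.5, 205 and 530.0 in ENMO, EAEcoI and EAEcoP, against 16.2 in NMO-IgG only (not well above background), 37.5 in control IgG only and 22.0 in the healthy control, a 10.6-fold difference. The 3 probes thus ordered the arrays with T cells in the same way, with EAEcoP highest and ENMO lowest. Because their sequences overlap, they are not 3 independent readings. RT1-M6-2 had another probe, outside this set, that was well above background in EAEcoP alone (13.7). Its arrays with and without T cells overlapped, with 5.64 in EAEcoI and 7.18 in control IgG only. The 10.6-fold difference of RT1-M6-2 thus rested on its brighter probe.

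RT1-T24-1 gave 21.0 (ENMO), 72.4 (EAEcoI) and 160 (EAEcoP) and was not well above background without T cells, where it gave 3.36 in the healthy control, 10.4 in control IgG only and 3.75 in NMO-IgG only. That is a difference of at least 5.73-fold (log2 difference 3.62, SE 0.80, adjusted p = 0.18 in limma). RT1-A3, a classical class I gene, gave 28.2 (ENMO), 20.3 (EAEcoI) and 135 (EAEcoP), and values from 3.28 to 8.82 without T cells, none well above background. It was at least 3.91-fold higher with T cells, and RT1-CE10, with a closely similar probe, at least 2.14-fold, at 15.7, 14.9 and 70.6 with T cells and 2.35 to 13.8 without. Both genes were similar in ENMO and EAEcoI and over 4-fold higher in EAEcoP.

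RT1-CE7 and RT1-CE16 followed the order of RT1-CE1. RT1-CE7 gave 39.3, 66.8 and 181 in ENMO, EAEcoI and EAEcoP, and from 11.5 to 14.2 without T cells, not well above background, so that it was at least 6.20-fold higher. RT1-CE16 was well above background on all 6 arrays, at 83.5, 107 and 155 with T cells and from 29.8 to 38.1 without, a 3.30-fold difference. RT1-CE5 gave 685 (ENMO), 1291 (EAEcoI) and 1776 (EAEcoP), against 349 in the healthy control, 506 in control IgG only and 353 in NMO-IgG only, a 3.10-fold difference without overlap.

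The classical gene RT1-A2 was well above background everywhere. Its NSI was 306 in ENMO, 241 in EAEcoI and 304 in EAEcoP, against 167 in the healthy control, 164 in control IgG only and 165 in NMO-IgG only. The groups did not overlap, the arrays without T cells were nearly equal, and the mean was 1.72-fold higher with T cells (log2 difference 0.77, SE 0.48, adjusted p = 0.55 in limma). The other probe of RT1-A2, partly overlapping the first in position, gave 54.2, 59.5 and 30.7 with T cells and 45.0, 32.2 and 64.6 without, with full overlap and a ratio of 1.02.

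RT1-CE2 and RT1-CE3, whose probes resemble that of RT1-A2, were well above background on all 6 arrays. RT1-CE2 ran from 666 to 931 with T cells and from 324 to 709 without, and RT1-CE3 from 384 to 536 and from 249 to 449.8. Both were highest in ENMO, unlike the set of RT1-CE1. RT1-Aw2 was represented by 4 targets. Target AJ004888 gave 747 (ENMO), 548 (EAEcoI) and 391 (EAEcoP), against 285 to 381 without T cells, with no overlap, and NM_012645 gave 134, 229 and 201 against 86.2 to 122, also with no overlap. Target Y13890 was at least 3.17-fold higher with T cells, at 18.3, 18.7 and 120.0, with 3.05 to 4.63 without, and M10094 did not differ beyond the spread between spots, at 18.1 to 18.9 against 15.2 to 21.0.

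The lowest ratios with over without T cells among the class I genes were those of RT1-M3, RT1-CE4 and RT1-M10-1. RT1-M3, which in rodents presents formylated peptides, gave 15.9, 19.6 and 12.7 in ENMO, EAEcoI and EAEcoP and 21.7, 18.7 and 25.2 in the 3 groups without T cells, of which 18.7 (control IgG only) was not well above background. Its ratio was 1.36-fold lower with T cells. RT1-M10-1 varied more within each side than between them, with 241, 121 and 28.0 with T cells and 148, 257 and 95.2 without. RT1-M5 also overlapped, at 248 to 568 with T cells and 346 to 527 without.

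The remaining class I targets were mixed or not well above background on every array. RT1-N1 ran from 37.6 to 169 with T cells and from 65.2 to 73.2 without, RT1-CE6, which carries a non-coding transcript identifier, from 65.9 to 142 and from 40.3 to 147, and RT1-S3 (NM_001008886) from 90.6 to 248 and from 67.3 to 146. RT1-N3 was well above background on 4 arrays, and not in ENMO (11.8) or control IgG only (6.38). RT1-M2 and the other RT1-S3 target were well above background in EAEcoP alone, at 15.3 and 8.51. That RT1-S3 target read higher in NMO-IgG only (13.6) and the healthy control (9.82), without being well above background there. RT1-T24-2 and RT1-Ke4 were not well above background on any array. RT1-Ke4 lies in the MHC but is known as a zinc transporter and not as a class I chain.

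As for RT1-A2, the probes of RT1-Cl and of RT1-CE4 gave different results for the same transcript. Probe 1 of RT1-Cl gave 464, 333 and 403 in ENMO, EAEcoI and EAEcoP and 415, 458 and 425 without T cells, a ratio of 1.08-fold lower. Probe 2 of RT1-Cl gave 22.9, 123 and 170 with T cells and was not well above background without, at 7.30, 2.79 and 5.40, so that it was at least 7.19-fold higher. For RT1-CE4, probe 1, of the RT1-A2 set, gave 242, 215 and 259 with T cells and 278, 459 and 203 without, 1.31-fold lower, while probe 2 gave 73.0, 102 and 458 against 39.0, 32.0 and 50.9, which is 5.19-fold higher with no overlap. Since the brightest probe stands for a target, the counts above list both genes as not higher. For RT1-CE5, both probes were higher with T cells, probe 2 at 37.0, 31.2 and 222 against values from 2.78 to 11.2, none of which was well above background.

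**Figure D2:**
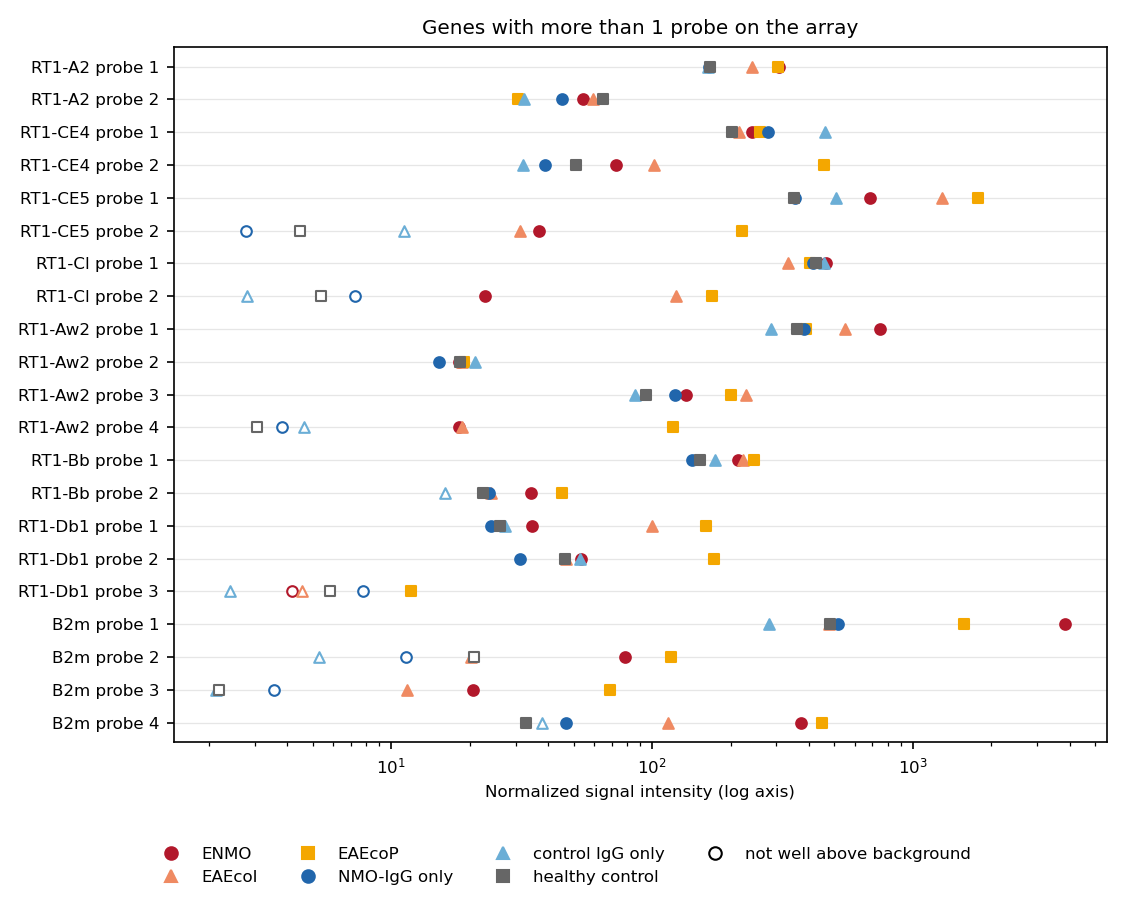
NSI (log axis) of every probe of 8 genes with more than 1 probe on the array, 1 point for each array, open where not well above background. The points of RT1-Cl probe 1 fall together between 333 and 464, whereas those of probe 2 separate the arrays with T cells (22.9 to 170) from those without (2.79 to 7.30).

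Of the 6 class II targets measured, RT1-Bb, the beta chain of the RT1-B molecule, was the 1 whose arrays with and without T cells did not overlap. It gave 213 (ENMO), 224 (EAEcoI) and 246 (EAEcoP), and 153 in the healthy control, 174 in control IgG only and 142 in NMO-IgG only, a 1.46-fold difference. In limma the log2 difference of 0.54 was close to its SE of 0.48 (adjusted p = 0.66). Its other probe gave 34.4, 24.1 and 45.3 with T cells and 23.8, 16.0 and 22.4 without. For RT1-Ba, the alpha chain of the same molecule, 1 target was not well above background on any array. The other (X14879) was well above background in ENMO (26.9) and EAEcoP (30.2) and not in the other 4 groups.

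RT1-Da, the alpha chain of the RT1-D molecule, was well above background in 2 groups, at 77.3 in ENMO and 60.8 in EAEcoP, and gave 6.24 in EAEcoI and 3.92 to 10.2 without T cells. Taken over the 3 arrays this was at least 2.83-fold higher with T cells, with EAEcoI on the side of the groups without T cells. Its other probe was well above background in EAEcoP alone (25.9). The beta chain gene RT1-Db1 gave 53.2, 46.6 and 172 in ENMO, EAEcoI and EAEcoP, and 31.1, 53.0 and 46.2 without T cells, so that its 2.09-fold ratio rested on EAEcoP. A second probe of RT1-Db1 gave 34.8, 100 and 161 with T cells and 24.2, 27.4 and 26.1 without, a 3.81-fold difference with no overlap, and its last probe was well above background in EAEcoP alone (11.9).

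RT1-DOa and RT1-DOb encode the chains of DO, which restrains peptide exchange by DM. RT1-DOa, the exception among the class II genes, gave 109 (ENMO), 56.2 (EAEcoI) and 34.0 (EAEcoP) and 54.7 in the healthy control, 112 in control IgG only and 245 in NMO-IgG only. Its mean was 2.07-fold lower with T cells, although the groups overlapped, and the group that had received NMO-IgG was the highest on both sides. RT1-DOb was barely above background, in EAEcoI (10.9) and EAEcoP (10.7). The DM genes were not analysed here.

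Among the partners, B2m showed the largest differences. Target NM_012512 gave 373 (ENMO), 115 (EAEcoI) and 450.3 (EAEcoP), and 46.9, 37.8 and 32.9 without T cells, where 37.8 (control IgG only) was not well above background. The groups did not overlap, and the mean was 7.97-fold higher with T cells (log2 difference 2.79, SE 0.63, adjusted p = 0.18 in limma). The other target, CF111193, gave 3817 (ENMO), 476 (EAEcoI) and 1575 (EAEcoP), against 481 in the healthy control, 280.1 in control IgG only and 518 in NMO-IgG only. EAEcoI lay within the range of the groups without T cells there, and the 4.59-fold ratio of the means rested on ENMO and EAEcoP. The other probe of CF111193 gave 78.9, 20.2 and 118 in ENMO, EAEcoI and EAEcoP. It was not well above background without T cells, at 5.30 to 20.8. A probe of NM_012512 printed 10 times on each array gave 20.6, 11.5 and 69.2 with T cells and was not well above background without them, at 2.13 to 3.57.

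Cd74, the invariant chain of class II, gave 67.0 (ENMO), 28.3 (EAEcoI) and 53.9 (EAEcoP), and 30.6 in NMO-IgG only, and it was not well above background in control IgG only (15.2) or the healthy control (8.15). The mean with T cells was 2.77-fold higher, with EAEcoI below NMO-IgG only. Ciita was well above background in EAEcoP alone, at 17.0. Tapbp gave 89.0, 128 and 208 in ENMO, EAEcoI and EAEcoP and 67.8, 52.9 and 77.9 without T cells, with no overlap and a 2.14-fold difference. Tap2 gave 34.7, 74.9 and 134 with T cells and 19.2, 41.7 and 25.1 without, where ENMO lay below control IgG only, and its mean was 2.83-fold higher. Tap1, the other subunit of the same transporter, stayed between 32.5 and 45.2 with T cells and between 24.5 and 38.9 without, and its 1.18-fold ratio was less than the spread between spots.

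The T-cell comparison can also be drawn in 3 pairs of equal antibody that share no array. In each pair the 2 arrays lay on different slides, so T cells and slide cannot be told apart within a pair. With NMO-IgG on both sides, ENMO over NMO-IgG only, the median log2 ratio was 0.70 for class I, 0.77 for class II and 0.99 for the partners. With control IgG, EAEcoI over control IgG only, it was 1.21, 0.09 and 0.87. With no IgG, EAEcoP over the healthy control, it was 1.08, 1.29 and 2.24. These medians hold values from sides below background. With such sides at the floor they were 0.56, 0.77 and 0.99 in the first pair, 0.94, -0.19 and 0.87 in the second, and 0.97, 0.38 and 1.71 in the last. Higher values in all 3 pairs were found for 16 of 27 class I, 2 of 6 class II and 6 of 7 partner targets, and for 18% of all targets tested. Class II was nearly level between EAEcoI and control IgG only, with 4 targets measured.

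**Figure D3:**
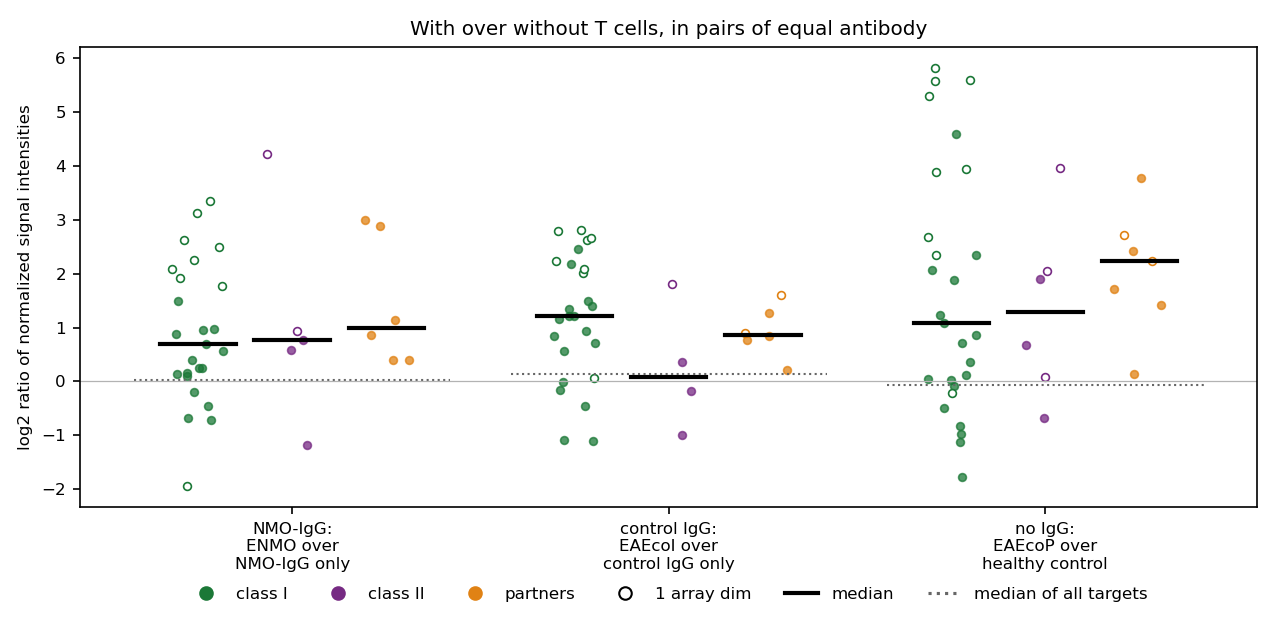
Log2 ratios of NSI with over without T cells for each class I, class II and partner target well above background on either array, in the 3 pairs of equal antibody, with open points where 1 array was not well above background. Bars are medians and dotted lines the median of all targets, which lies between -0.07 and 0.13, while the class I bars lie at 0.70, 1.21 and 1.08.

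Whether the antibody changed these transcripts in the presence of T cells was addressed by setting ENMO against each EAE group. Against EAEcoI, no class I target of 25 was at least 2-fold higher in ENMO and 3 were at least 2-fold lower, while 14.8% of all targets were higher and 14.1% lower by that much. The class I median log2 ratio was -0.22, that of class II 0.49 and that of the partners 0.38. Against EAEcoP, 3 of 27 class I targets were at least 2-fold higher in ENMO and 10 lower, beside 26.9% and 22.8% of all targets, with a class I median of -0.71, a class II median of -0.19 and a partner median of -0.06. The comparisons share the ENMO array. EAEcoI lay on the other slide, so antibody and slide cannot be told apart in ENMO against EAEcoI. Set against the mean of both EAE groups, the medians were -0.65 for class I, 0.05 for class II and 0.40 for the partners, beside -0.10 for all targets, and the class I value was -0.22 without EAEcoP. The partner median has no settled direction. It was 0.06 with dim sides at the floor, -0.28 with the mean over probes, -0.11 with normexp and -0.06 without EAEcoI.

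The 10 class I targets lower in ENMO than in EAEcoP were RT1-A3, RT1-Aw2 (Y13890), RT1-CE1, RT1-CE5, RT1-CE7, RT1-CE10, RT1-CE12, RT1-M6-2, RT1-S3 (NM_001008886) and RT1-T24-1. RT1-M6-2 was 7.73-fold lower, RT1-T24-1 7.59-fold and RT1-CE1 5.25-fold. In EAEcoP, 15 of 27 class I targets had their highest NSI of the arrays with T cells, against 36.9% of all targets, and 14 of 27 had their lowest in ENMO, against 29.9%. EAEcoP was also the array with the most spots well above background and ENMO that with the fewest among the arrays with T cells. The part of this difference between the arrays in the class I values was not tested. The 3 class I targets at least 2-fold higher in ENMO than in EAEcoP were RT1-M10-1 (8.61-fold), RT1-N1 (2.55-fold) and RT1-M5 (2.29-fold).

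The partner genes did not share 1 order of ENMO and the EAE groups. Compared with EAEcoI, the ENMO array was 8.01-fold higher for the B2m target CF111193, 3.25-fold for NM_012512 and 2.37-fold for Cd74. Against EAEcoP, B2m was 2.42-fold higher for CF111193 and 1.21-fold lower for NM_012512, and Cd74 1.24-fold higher. The higher B2m value rested on the brightest probe of CF111193. Its other probe gave 78.9 in ENMO and 118 in EAEcoP, and the repeated probe of NM_012512 gave 20.6 and 69.2. Tap2 was lower in ENMO than in either EAE group, by 2.16-fold and 3.85-fold, Tapbp by 1.44-fold and 2.34-fold, and Tap1 by 1.39-fold and 1.04-fold. Among the class II genes, RT1-Da in ENMO was at least 12.4 times the level of EAEcoI and 1.27-fold above EAEcoP, RT1-DOa 1.94-fold and 3.20-fold higher, and RT1-Db1 1.14-fold higher and 3.24-fold lower. Other probes differed. That of RT1-Da gave 6.13 in ENMO and 6.55 in EAEcoI, both not well above background, and 25.9 in EAEcoP. The second probe of RT1-Db1 was lower in ENMO (34.8) than in EAEcoI (100) or EAEcoP (161).

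The 2 EAE groups differ in control IgG against PBS, and also in their slide. In EAEcoI, 4 of 27 class I targets were at least 2-fold higher than in EAEcoP and 9 lower, beside 25.1% and 21.3% of all targets, with a class I median log2 ratio of -0.28. Of the class II targets none was 2-fold higher and 2 were lower, with a median of -0.55, and of the partners none was higher and 3 of 7 were lower, with a median of -0.93. RT1-A3 was 6.68-fold lower in EAEcoI and RT1-Da at least 9.74-fold, and both B2m targets were 3.92-fold and 3.31-fold lower.

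Without T cells, NMO-IgG only and control IgG only gave a class I median log2 ratio of 0.02 over 19 targets. The class II median was -0.29 over 3 targets and the partner median 0.34 over 6. These 2 arrays lay on different slides, so antibody and slide cannot be told apart here. At least 2-fold higher values in NMO-IgG only were found for 3 class I targets, and at least 2-fold lower values for 2, beside 13.9% and 12.6% of all targets. Well measured on both arrays, RT1-CE6 was 2.39-fold higher, RT1-S3 (NM_001008886) 2.03-fold higher and RT1-DOa 2.18-fold higher in NMO-IgG only, and Tap2 was 2.17-fold lower. In limma with T cells and antibody as additive terms, NMO-IgG against control IgG gave no call among the members or among all targets at an adjusted p of 0.05. With slide as a block, limma called 57 of all targets (0.23%), 1 of them higher, and without control IgG only 244 (0.986%), in both cases no member. An unadjusted p under 0.05 was reached by 1 of the 40 members, B2m (CF111193), with a log2 difference of 1.94 (SE 0.81, adjusted p = 0.999993), and by 1.3% of all targets.

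**Figure D4:**
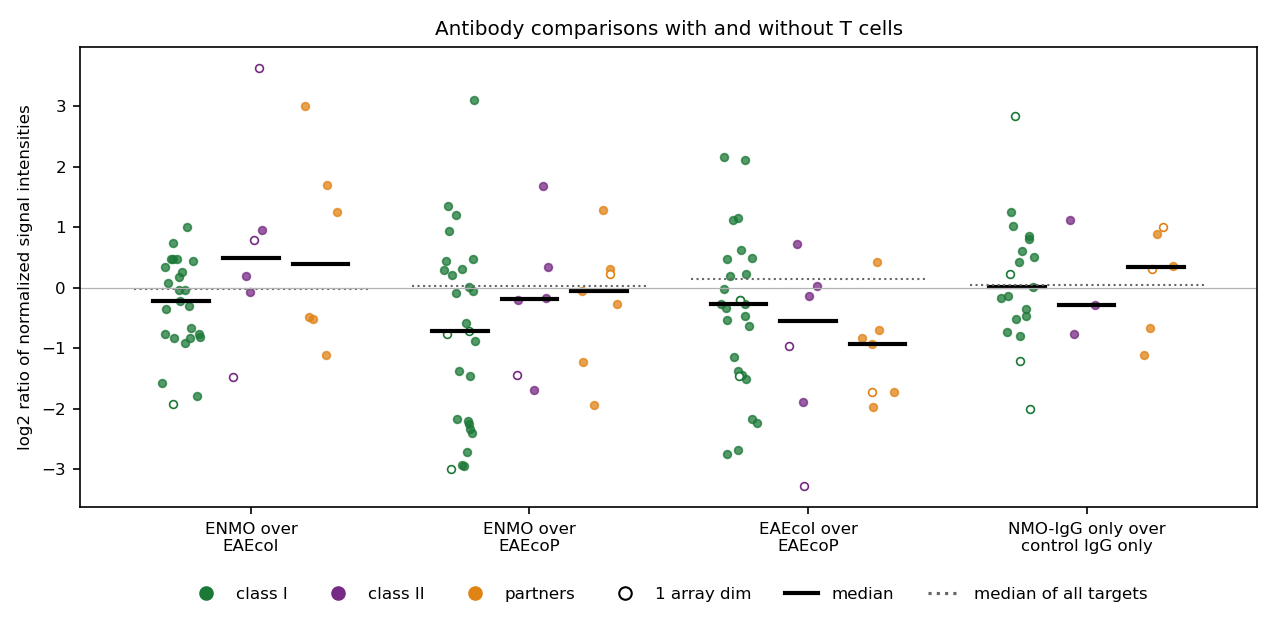
Log2 ratios of NSI for each class I, class II and partner target in 4 comparisons of antibody, 3 with T cells and 1 without, drawn as in the plot of the T-cell pairs. Open points mark ratios with 1 array not well above background. Class I targets measured on both arrays reach from -2.95 to 3.11 between ENMO and EAEcoP, and the class I medians are -0.22, -0.71, -0.28 and 0.02 from left to right.

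Other genes of the same pathways were taken from fixed lists, whose counts are read against 10.4% of all targets at least 2-fold higher with T cells and 10.9% without overlap. Of the genes that supply peptides to class I, 6 of 6 were measured, 2 were at least 2-fold higher with T cells and 1 did not overlap. That gene, Psmb9, a subunit of the immunoproteasome, gave 1615 (ENMO), 595 (EAEcoI) and 401 (EAEcoP) against 38.4 to 51.6 without T cells. Psmb10, another such subunit, gave 1045, 32.3 and 2072 against 31.9 to 128, with EAEcoI at the level of the groups without T cells, as for B2m (CF111193) and RT1-Da. Of 8 further genes of class I loading, 6 were measured, 1 was at least 2-fold higher and 1 lower. The chaperone Calr gave 996, 227 and 666 with T cells and 603 to 1413 without.

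Of the 8 genes of class II processing, 7 were measured and 4 were at least 2-fold higher with T cells. Ifi30, a thiol reductase of endosomes, gave 397, 20.9 and 119 in ENMO, EAEcoI and EAEcoP against 28.9 to 39.3, and the protease Ctsb 2514, 283 and 3726 against 518 to 850. In both, EAEcoI lay below all 3 groups without T cells. March1, a ubiquitin ligase that removes class II from the cell surface, was the gene of this list that did not overlap, with 76.5, 669 and 684 against 24.6 to 58.9. Of the 14 regulators, 9 were measured, 2 were at least 2-fold higher and 1 lower. Irf1, which activates class I genes, gave 31.6, 66.3 and 97.7 with T cells and 12.3 to 35.3 without. The other higher gene, Ifngr2, gave 689, 198 and 1367 against 282 to 370, and the lower gene was Nfya (log2 ratio -1.07). Ifng gave 16.5 to 20.8 with T cells and was not well above background without, at 10.5 to 13.8, a difference of at least 1.55-fold. Of the 6 co-stimulatory genes 3 were measured and none passed 2-fold.

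In RNA of whole tissue, more cells of a type and more RNA in each cell cannot be told apart. Of the 18 myeloid markers 15 were measured and 3 were at least 2-fold higher with T cells, with a median log2 ratio of -0.03 over the list. Their summed NSI was 15991 in ENMO, 5909 in EAEcoI and 4086 in EAEcoP, against 2696 to 4320 without T cells, and most of it was Tyrobp, at 14041 in ENMO. Without Tyrobp the sums overlapped, at 1950 (ENMO), 1276 (EAEcoI) and 1570 (EAEcoP) against 1344 to 1761. Of the 13 T cell markers 8 were measured, 2 were at least 2-fold higher, and the sums were 2775, 1426 and 1308 with T cells and 1010 to 1146 without. Most of this was Cd3d, and without it the sums overlapped, at 427, 503 and 436 against 229 to 460.0. Cd3e and Cd2 were not well above background on any array. Of the 8 B cell markers 4 and of the 8 dendritic cell markers 4 were measured, with sums that overlapped between the sides. The part of these cells in the MHC values was not tested.

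The promoters of the members were read from RefSeq (GRCr8), from 250 bases before to 50 bases after the gene start, and 29 of the 37 genes had an entry. The search covered 4 motifs on both strands. They were the Y box (CCAAT or ATTGG), the core of the X2 box (TGACG or CGTCA), both parts of the module that class II and class I promoters share, the interferon-stimulated response element (ISRE, here GAAA, any 2 bases and GAAA again, or TTTC in the same way), and the letters TTTCACTTC or GAAGTGAAA, a form of it found in class I promoters that was added after the promoters were seen. The Y box was present in 13 of 18 class I, 6 of 6 class II and 2 of 5 partner promoters, and in 37.5% of all 33469 promoters. The ISRE was present in 4 of 5 partner promoters, those of B2m, Tap1, Tap2 and Tapbp, in 2 of 18 class I and in none of 6 class II promoters, and in 3.92% of all. The class I form was present in 6 of 18 class I promoters, those of RT1-A2, RT1-A3, RT1-CE3, RT1-CE5, RT1-CE10 and RT1-CE16, in none of 6 class II promoters, in that of Tap2, and in 0.469% of all. Because its letters were chosen after the promoters were seen, this count cannot be read as an enrichment. The 6 class I promoters also resemble each other around the match, so they are not separate occurrences. The X2 core occurred in 4 of 18 class I promoters, 1 of 6 class II promoters and 1 of 5 partner promoters, and in 21.2% of all.

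The 250 bases before the start are shown for B2m and Tap1, which both hold the ISRE and of which B2m but not Tap1 differed between the sides beyond the spread between spots, and for RT1-A2 and RT1-Bb, 1 chain of each class. Capitals mark the matches to the 4 motifs. B2m lies at chr3:129549080-129549329 (plus strand), Tap1 at chr20:4668544-4668793 (minus), RT1-A2 at chr20:4872621-4872870 (plus) and RT1-Bb at chr20:4604119-4604368 (minus).
B2m promoter: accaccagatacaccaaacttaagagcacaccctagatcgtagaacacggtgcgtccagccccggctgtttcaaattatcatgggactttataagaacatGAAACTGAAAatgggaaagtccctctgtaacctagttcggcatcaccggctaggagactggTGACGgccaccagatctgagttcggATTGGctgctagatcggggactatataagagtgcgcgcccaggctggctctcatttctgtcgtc
Tap1 promoter: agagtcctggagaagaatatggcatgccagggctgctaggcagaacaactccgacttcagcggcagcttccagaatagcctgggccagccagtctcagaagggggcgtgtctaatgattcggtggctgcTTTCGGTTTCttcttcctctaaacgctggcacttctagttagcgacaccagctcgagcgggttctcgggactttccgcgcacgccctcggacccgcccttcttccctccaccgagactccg
RT1-A2 promoter: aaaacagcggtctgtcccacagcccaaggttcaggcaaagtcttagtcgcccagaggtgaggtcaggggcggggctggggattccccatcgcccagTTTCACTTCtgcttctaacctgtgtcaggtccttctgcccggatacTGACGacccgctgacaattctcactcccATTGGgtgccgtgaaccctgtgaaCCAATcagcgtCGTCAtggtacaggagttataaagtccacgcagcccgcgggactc
RT1-Bb promoter: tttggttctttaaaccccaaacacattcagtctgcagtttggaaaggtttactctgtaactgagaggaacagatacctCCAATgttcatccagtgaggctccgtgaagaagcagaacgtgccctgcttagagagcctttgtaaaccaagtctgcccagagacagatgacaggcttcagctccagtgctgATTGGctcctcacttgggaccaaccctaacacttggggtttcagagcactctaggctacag

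A match to such short motifs is a description of the letters, and its absence says only that these letters are not in the window.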

How the data were processed

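RNA of 6 pools of rat spinal cord, 1 for each group, was hybridised to Agilent arrays of the rat genome in a single colour. Per the file headers, Feature Extraction 10.1.1.1 gave each spot a processed signal intensity, corrected within the array for background and spatial trends. The authors state that quantile normalization followed. The authors' deposited values per target, an intensity too, were used as an alternative only.

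Control spots and spots marked as outliers were left out, log2 signals were averaged over the spots of a probe, and the 41012 probes were quantile-normalized with limma 3.58.1 in R 4.3.3. A probe was well above background on an array if at least 50% of its spots were so marked. A target was tested if its probe passed on any array and had a value on all 6 (24759). Folds are ratios of mean NSI. Folds given as bounds (at least or at most) are instead differences of mean log2 NSI, with dim values below the floor raised to it. The 2 kinds are not on the same scale where a side holds more than 1 array. Tests were limma with Benjamini-Hochberg adjustment over all targets, checked on simulated data first. An exact permutation test of 3 against 3 arrays cannot go below 0.10. With 1 array a group, a 2-fold ratio was taken as a call, with a dim side at its detection floor.

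Every member is covered by its values or counts. The classical chains, DO chains and partners are given in full, and of the other class I genes the 3 highest and 3 lowest and those with discordant probes. The members and lists were chosen with earlier results of these data known. The number of arrays limits the precision.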

Additional observations from a re-analysis of the deposited data

Results flagged for a closer look

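The antibody comparisons were set side by side with and without T cells, and results whose ratios had opposite signs on the 2 sides were singled out. Each side is 1 array against 1 array, so none of these differences was tested. In both contrasts the 2 arrays of a side lay on different slides, in opposite order with and without T cells. The differences between the sides thus cannot be told apart from the slide. For NMO-IgG over control IgG, the class I median log2 ratio was -0.22 with T cells and 0.02 without, a difference of -0.24, and the class II median was 0.49 with and -0.29 without, a difference of 0.79. For control IgG over no IgG, the difference between the sides was -0.38 for class I, -0.74 for class II and -1.13 for the partners. All had lower values under control IgG with T cells and higher values without. The sides rested on unlike numbers of targets, here 6 with and 3 without T cells for class II, and 7 and 5 for the partners. With dim sides at the floor, the partner median without T cells was -0.11, so its sign was no longer opposite.

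RT1-N3 and RT1-CE12 had opposite ratios of at least 2-fold on the 2 sides, in part as bounds. RT1-N3 had a difference between the sides of -3.90 on the log2 scale for NMO-IgG over control IgG and of 3.07 for control IgG over no IgG, and was not well above background in ENMO and control IgG only. RT1-CE12 had a difference of -3.41 for control IgG over no IgG, with 303 in EAEcoI, 860.0 in EAEcoP and 66.7 in control IgG only, and was not well above background in the healthy control.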

How the results depend on the processing

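Of 150 values under alternative settings, 127 kept their direction and moved by less than the spread between spots (for counts, by less than 1.5 times), 9 moved by more and 14 changed sign. The authors' deposited values gave class I medians of 1.54 with over without T cells, -1.58 for ENMO over EAE and 0.65 for NMO-IgG only over control IgG only, class II medians of 1.46, -0.77 and 0.55, partner medians of 2.34 and -1.02 for the first 2 comparisons, and 28 members above every array without T cells in place of 16. That scaling shifts all targets (medians of 0.75, -0.81 and 0.38). The class I median of NMO-IgG only over control IgG only turned to -0.048 with 75th percentile scaling. The class II median of ENMO over EAE turned to -0.14 with the filter at 3 arrays and without a filter, to -0.074 with the mean over probes and to -0.0019 with normexp, and its value between -0.19 and 0.49 on leaving out an EAE array shows no direction. The class II median of NMO-IgG only over control IgG only turned to 0.25 with the mean over probes and to 0.84 without a filter. The partner median of ENMO over EAE turned to -0.28 with the mean over probes and to -0.11 with normexp, and ranged from -0.057 to 0.38 on leaving out an EAE array. With over without T cells it was 0.63 with normexp and from 1.17 to 1.87 on leaving out an array. Partner values under alternatives were added after seeing the data. Within the slide of ENMO, class II with over without T cells was 1.16. With normexp over all 6 arrays it was 0.15 in place of 0.57, which counts among the 127 because the move was less than the spread between spots. Leaving out 1 array at a time, the class I median with T cells stayed between 0.64 and 1.05, that of class II between 0.38 and 0.82, and class I in ENMO over EAE between -0.71 and -0.22. The members called with T cells were 0 or 1. Setting dim sides at their bounds, or keeping targets well above background on all arrays, was chosen after seeing the data and gave 0.78 and 0.56 for class I and 0.54 in both cases for class II. No member was called with slide as a block or with antibody as an additive term to the T cells. No paired analysis was possible because each group is 1 array, so no replicate numbers pair arrays. Depth is unknown for arrays, and dim targets have only bounds.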
